A study of Mus musculus with 8 samples.

Results

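The Hox genes encode homeodomain transcription factors that give cells their position along the head to tail axis of the embryo. The members are the 39 genes of the deposited table whose symbol is Hoxa, Hoxb, Hoxc or Hoxd followed by a paralogue number, out of 50902 genes. Of these, 38 are described, and every count, order and sum of Hox genes below is over these 38. They lie in 4 clusters, with 10 of them in Hoxa, 10 in Hoxb, 9 in Hoxc and 9 in Hoxd. In mm10, those of Hoxa lie on chromosome 6 from 52162417 to 52260880, Hoxb on chromosome 11 from 96194316 to 96368256, Hoxc on chromosome 15 from 102921103 to 103036852 and Hoxd on chromosome 2 from 74668310 to 74765142. Every Hox gene of a cluster is transcribed in the same direction, and the low paralogue numbers lie at the 3′ end.

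RNA was sequenced from E14 mouse embryonic stem cells (ESCs), an established line kept without feeders in N2B27 medium with LIF and 2i (inhibitors of MEK and GSK3β). Both groups carried a piggyBac transgene for BAZ2A with Flag and HA tags that resists the siRNA, and both were transfected with siRNA against endogenous *Baz2a* and collected 3 days later. The transgene encoded full-length BAZ2A in 1 group (ESC + F/H-BAZ2Ar WT, called WT here, 4 libraries) and BAZ2A without its RNA-binding TAM domain in the other (ESC + F/H-BAZ2Ar ΔTAM, called ΔTAM here, 4 libraries). The question was how the TAM domain bears on the mRNA levels of genes. The transgenic lines were isolated as single-cell clones and picked for transgene protein close to the endogenous level, so that the effect of the deletion and differences between separately derived lines cannot be told apart. How many clones or cultures gave the 4 libraries of a group is not given in the sources used here, and the p-values below therefore measure the spread between libraries, which may be technical.

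Hox genes of a cluster are activated during gastrulation in the order in which they lie, from the 3′ end with anterior genes to the 5′ end with posterior genes. In ESCs the clusters are held silent by Polycomb complexes, which place H3K27me3 and ubiquitinated H2A on them, and retinoic acid is the classical signal that opens them. Genes with the same number in different clusters are paralogues that arose by duplication of the cluster.

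A library had 7281271 to 7714168 reads on genes in WT and 6585593 to 8696304 in ΔTAM, which was 14.9% to 15.0% of the library total implied by the RPKM steps. *Baz2a* itself, read from the transgene and what remained of the endogenous mRNA, was at 10.5 ± 0.529 RPKM (SD, n = 4) in WT and 18.3 ± 0.824 RPKM (SD, n = 4) in ΔTAM, so the 2 lines also differed in the amount of *Baz2a* mRNA. All 8 ESC markers were tested, and 4 of them were lower in ΔTAM (*Sox2*, *Klf4*, *Dppa5a* and *Esrrb*) by the limma test described below, against 16.0% of all genes tested, and none higher, against 19.9%. Their summed level was 7304 to 7351 RPM (reads per 1000000 reads on genes) in WT and 6381 to 6724 in ΔTAM. The 6 mesoderm markers summed to 45.6 to 50.6 in WT and 35.7 to 44.3 in ΔTAM, the 6 neuroectoderm markers to 3.64 to 4.94 and 2.30 to 2.75, the 6 endoderm markers (*Afp* at 0) to 5.60 to 6.22 and 6.99 to 8.96, the 4 trophoblast markers to 57.7 to 61.0 and 65.0 to 71.5, and the 6 fibroblast markers (*Col3a1* and *Twist2* at 0) to 0.907 to 1.79 and 1.26 to 2.50. The part of these differences in the Hox results was not tested. In bulk RNA, more cells that use a gene and more RNA per cell cannot be told apart.

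For 22 of the 38 Hox genes the RefSeq promoter table of GRCm38.p6 held at least 1 window of 300 bases, from 250 bases before to 50 bases after the start. The windows of 4 genes that were higher in ΔTAM (*Hoxa5*, *Hoxd8*, *Hoxd9* and *Hoxd13*) and of *Hoxb4*, which did not pass the test, are shown because Polycomb marks in ESCs lie over promoters rich in CG. They are written 5′ to 3′ on the strand of the gene, with each CG in capitals. *Hoxa5* lies on the minus strand (chr6:52204538-52204837) and the others on the plus strand (*Hoxd8* at chr2:74704365-74704664, *Hoxd9* at chr2:74697513-74697812, *Hoxd13* at chr2:74667975-74668274 and *Hoxb4* at chr11:96318017-96318316).
*Hoxa5* promoter: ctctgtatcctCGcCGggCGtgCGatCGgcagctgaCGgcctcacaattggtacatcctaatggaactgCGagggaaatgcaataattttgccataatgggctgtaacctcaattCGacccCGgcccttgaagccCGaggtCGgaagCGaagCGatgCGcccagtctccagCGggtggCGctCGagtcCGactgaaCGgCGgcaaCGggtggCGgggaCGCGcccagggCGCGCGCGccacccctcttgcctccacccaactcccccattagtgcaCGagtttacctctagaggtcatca
*Hoxd8* promoter: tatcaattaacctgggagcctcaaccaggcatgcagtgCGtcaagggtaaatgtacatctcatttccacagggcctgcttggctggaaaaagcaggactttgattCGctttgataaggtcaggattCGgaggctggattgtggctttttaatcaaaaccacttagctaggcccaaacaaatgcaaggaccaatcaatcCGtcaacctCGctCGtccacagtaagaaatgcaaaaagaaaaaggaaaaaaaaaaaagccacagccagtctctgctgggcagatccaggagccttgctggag
*Hoxd9* promoter: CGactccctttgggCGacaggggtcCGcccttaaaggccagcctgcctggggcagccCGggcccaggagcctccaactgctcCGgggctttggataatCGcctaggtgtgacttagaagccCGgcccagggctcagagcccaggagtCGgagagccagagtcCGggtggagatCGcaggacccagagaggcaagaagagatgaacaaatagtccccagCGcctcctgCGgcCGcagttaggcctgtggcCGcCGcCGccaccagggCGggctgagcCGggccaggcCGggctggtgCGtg
*Hoxd13* promoter: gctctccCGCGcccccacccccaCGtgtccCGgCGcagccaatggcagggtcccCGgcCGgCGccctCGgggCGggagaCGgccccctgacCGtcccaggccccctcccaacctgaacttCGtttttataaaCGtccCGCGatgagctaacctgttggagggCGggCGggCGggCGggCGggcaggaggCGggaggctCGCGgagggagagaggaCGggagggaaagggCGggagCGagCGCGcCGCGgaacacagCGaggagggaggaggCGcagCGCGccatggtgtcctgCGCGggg
*Hoxb4* promoter: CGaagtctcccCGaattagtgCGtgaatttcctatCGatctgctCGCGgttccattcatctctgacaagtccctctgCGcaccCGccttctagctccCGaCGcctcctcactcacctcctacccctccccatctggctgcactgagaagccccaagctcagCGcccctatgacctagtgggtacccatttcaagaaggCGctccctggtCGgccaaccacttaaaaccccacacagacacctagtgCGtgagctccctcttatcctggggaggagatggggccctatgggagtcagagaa

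The *Hoxd13* window held 37 CG, *Hoxa5* 29, *Hoxd9* 20, *Hoxb4* 14 and *Hoxd8* 6, against a median of 7 over the 32851 windows of the table and of 14.5 over the 24 Hox windows. Windows of genes that were higher in ΔTAM thus ranged from 6 to 37 CG. The letters TATAAA, searched on both strands, were in 13.6% of all windows and in 4 of the 24 Hox windows, among them *Hoxd13*. TTTATG, a core of the site bound by caudal proteins, was in 11.9% of all windows and in 5 Hox windows, and TGATNNAT, a core of the site shared by Hox and Pbx proteins, in 8.85% and in 4. Neither of the last 2 was in the 5 windows shown. A match is a run of letters and not a site.

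The Hox genes were transcribed at low levels in both lines. Of the 38, 37 had at least 1 read in at least 1 library and *Hoxb5* had none. A mean of at least 10 reads was reached by 19, a mean of 1 to 10 reads by 10, and 9 had a mean under 1 read. The 7 genes with the most reads (*Hoxa9*, *Hoxa7*, *Hoxc13*, *Hoxa10*, *Hoxb13*, *Hoxc4* and *Hoxa5*) held 69.8% of the reads of the 38 in WT and 67.9% in ΔTAM. Levels of different genes were compared in RPM per kilobase of exon. On this scale *Hoxb13* was highest of the 38 in WT, at 4.79 ± 0.116 (SD, n = 4). *Hoxc13* (4.74), *Hoxa7* (4.26), *Hoxa9* (3.60), *Hoxa10* (3.00), *Hoxc12* (2.67) and *Hoxc4* (2.59) followed, and in this order the libraries of each gene overlapped those of the next. In ΔTAM *Hoxc13* (6.60) and *Hoxa7* (6.45) were highest and overlapped each other, while *Hoxb13* was at 2.92 ± 0.262 and ranked 6. Per kilobase of genomic span, as deposited, 6 of the 10 highest genes in WT were the same.

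**Figure D1:**
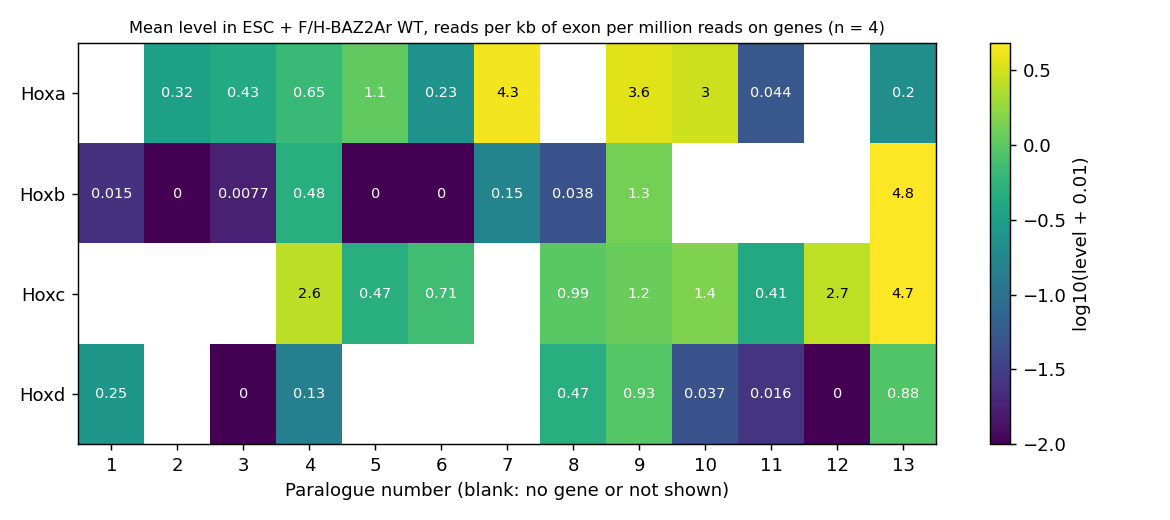
Mean level of each Hox gene in ESC + F/H-BAZ2Ar WT (n = 4), in RPM per kilobase of exon, by cluster (rows) and paralogue number (columns); the colour is log10(level + 0.01) and blank fields have no gene or are not shown. The high fields are at positions 7, 9 and 10 of Hoxa, at position 13 of Hoxb and at positions 4, 12 and 13 of Hoxc, while most of Hoxb and Hoxd is near 0.

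The levels in WT did not follow the order of the genes in a cluster. In Hoxa the central to posterior genes *Hoxa7*, *Hoxa9* and *Hoxa10* were high, while *Hoxa2* (0.321), *Hoxa6* (0.227), *Hoxa11* (0.0437) and *Hoxa13* (0.201) were low. Hoxb held 1 gene at a high level, the posterior *Hoxb13*, and 5 genes with at most 3 reads in any library. In Hoxd, *Hoxd8* (0.470), *Hoxd9* (0.933) and *Hoxd13* (0.884) stood above *Hoxd10* (0.0368), *Hoxd11* (0.0159) and *Hoxd12* (0), which lie between them.

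Of the 38 Hox genes, 10 averaged 0.1 RPKM or more and entered the limma fit on log2(RPKM + 0.1). With a Benjamini-Hochberg adjusted p under 0.05 over all 9002 genes tested, 5 were higher in ΔTAM (*Hoxa5*, *Hoxa7*, *Hoxa10*, *Hoxd9* and *Hoxd13*), against 19.9% of all genes tested, and 1 was lower (*Hoxb13*), against 16.0%. The median log2 fold change was 0.33 over these 10 and 0.011 over all genes tested. The pseudocount of 0.1 RPKM is as large as the level of many Hox genes and pulls their fold changes towards 0. The recovered reads were therefore also tested with limma voom, which weights each value by its expected precision, over the 12660 genes that averaged 10 reads or more. Of the 19 Hox genes among these, 10 were higher (those 5 and *Hoxa3*, *Hoxc4*, *Hoxc5*, *Hoxc13* and *Hoxd8*), against 21.2% of all genes tested, and 1 was lower (*Hoxb13*), against 22.6%. Among the genes called, *Hoxd8* reached a mean of 10 reads, and *Hoxd13* a mean of 0.1 RPKM for limma, only through ΔTAM. The fold change was positive for 16 of the 19 Hox genes and for 48.6% of all genes, with medians of 0.48 and -0.0087. These 11 calls held with each library left out, with median-ratio scaling, with a lower filter and with the replicate number as a block.

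In RPKM, the ΔTAM libraries lay above all WT libraries, without overlap, for 9 of the 37 Hox genes with reads, against 10.7% of all 25439 genes above 0, and below them for 1, against 10.2%. The 9 were *Hoxa3*, *Hoxa5*, *Hoxa6*, *Hoxa10*, *Hoxc5*, *Hoxd8*, *Hoxd9*, *Hoxd10* and *Hoxd13*, and the 1 was *Hoxb13*. Scaled to reads on genes, *Hoxa7* was narrowly apart as well, with 13.3 RPM in its highest WT library and 13.4 RPM in its lowest ΔTAM library. By cluster, 4 of 10 Hoxa genes, 1 of 9 Hoxc genes and 4 of 9 Hoxd genes had the ΔTAM libraries above, and no Hoxb gene did. These counts include *Hoxa6* and *Hoxd10*, which averaged under 10 reads, and *Hoxd10* was apart only through the size of the libraries. With 4 libraries against 4, the smallest p that an exact two-sided permutation test can give for 1 gene is 0.0286.

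**Figure D2:**
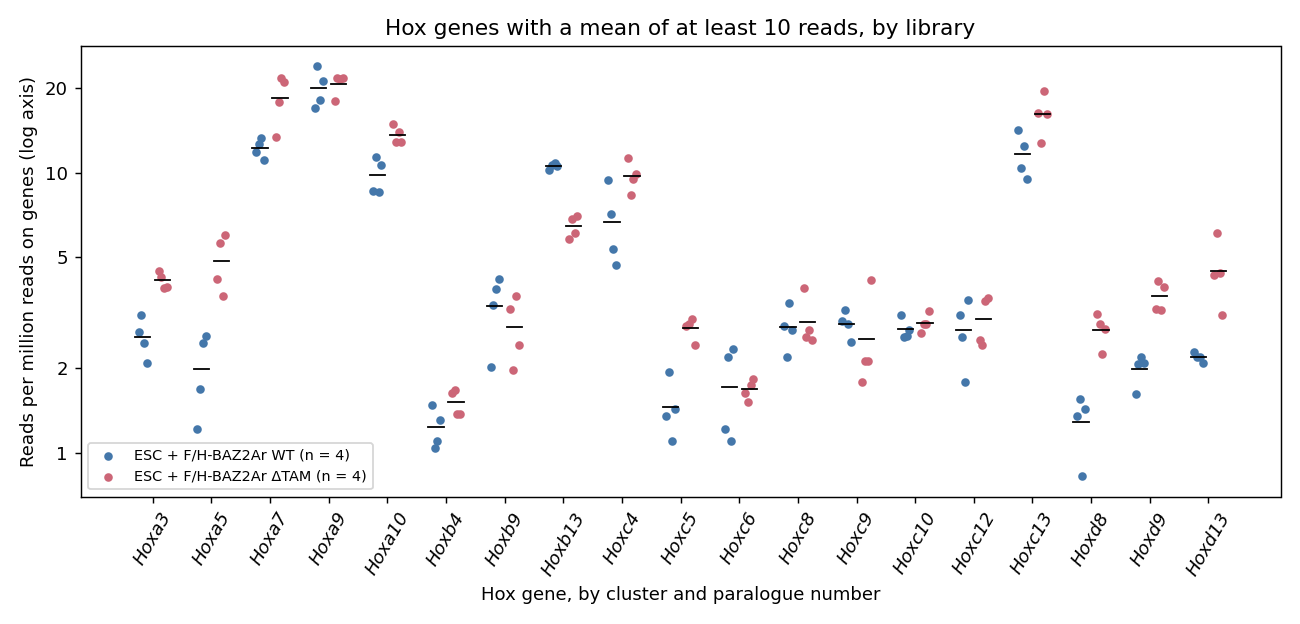
RPM (reads scaled to 1000000 reads on genes, log axis) of the 19 Hox genes that averaged 10 reads or more, with 1 point per library and a line at the mean of each group (n = 4 each). The ΔTAM points lie above all WT points for *Hoxa3*, *Hoxa5*, *Hoxa7* (by a narrow gap), *Hoxa10*, *Hoxc5*, *Hoxd8*, *Hoxd9* and *Hoxd13*, and below them for *Hoxb13*.

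In the Hoxa cluster 4 of the 5 genes tested by voom were higher in ΔTAM, against 21.2% of all genes tested, and *Hoxa9* did not pass. *Hoxa5*, a central gene needed for the patterning of the cervical region and for lung development, had 9, 13, 18 and 20 reads in WT and 28, 37, 29 and 52 in ΔTAM. The groups did not overlap, though both spread widely. The voom change was 2.44-fold (95% interval 1.68 to 3.55, adjusted p = 3.94e-04), the largest estimate among the 19 Hox genes, and on log2(RPKM + 0.1) it was 0.80 (standard error 0.16, limma adjusted p = 0.00641). Its neighbour *Hoxa6* had 0, 1, 2 and 3 reads in WT and 8, 5, 7 and 5 in ΔTAM, without overlap. It was too low for either filter, and in a limma fit without a filter its change was 0.44 on log2(RPKM + 0.1) (adjusted p = 0.0219).

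*Hoxa3*, an anterior gene of the pharyngeal arches, had 20, 24, 18 and 16 reads in WT and 30, 28, 31 and 34 in ΔTAM. The 2 ranges did not touch. By voom it was 1.58-fold higher (95% interval 1.18 to 2.12, adjusted p = 0.0120). Its span of 44274 bases runs across *Hoxa4*, *Hoxa5* and *Hoxa6*, and 27.1% of its exon bases are shared with other annotated transcripts. *Hoxa2* (2 to 6 reads in WT and 4 to 15 in ΔTAM) and *Hoxa4* (5 to 11 and 7 to 13) overlapped between groups.

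*Hoxa7* had 88, 98, 97 and 85 reads in WT and 90, 118, 175 and 183 in ΔTAM. ΔTAM library 1 lay within the WT range of reads and libraries 3 and 4 were highest. The change was 0.44 on log2(RPKM + 0.1) (standard error 0.12, limma adjusted p = 0.0242) and 1.52-fold by voom (95% interval 1.25 to 1.84, adjusted p = 0.00114). The limma call was lost without WT library 1 or 4 or ΔTAM library 2, 3 or 4, where the adjusted p lay between 0.0506 and 0.0628, and without the filter on low genes (0.0592), while that of voom was at most 0.00669 with a library left out. Of its exon bases, 20.4% are shared with the antisense transcript *Hoxaas3*.

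*Hoxa9*, a posterior gene known for its part in leukaemia, took the most reads of the 38 genes and did not pass the test. It had 126, 185, 132 and 163 reads in WT and 121, 144, 173 and 189 in ΔTAM, ranges that overlap almost fully. The voom ratio was 1.04, with a 95% interval of 0.896 to 1.22 (adjusted p = 0.671). *Hoxa10*, which lies next to it and is used in the uterus and the hind limb, had 64, 88, 62 and 82 reads in WT and 100, 85, 112 and 112 in ΔTAM. ΔTAM library 2 had fewer reads than WT library 2, but scaled to depth all ΔTAM libraries were above WT, at 13.7 ± 0.958 against 9.81 ± 1.46 RPM (SD, n = 4 each). The change was 1.39-fold by voom (95% interval 1.17 to 1.66, adjusted p = 0.00328) and 0.31 on log2(RPKM + 0.1) (standard error 0.069, limma adjusted p = 0.0102). *Hoxa11* had at most 3 reads in a library, and *Hoxa13* had 3 to 6 reads in WT and 5 to 9 in ΔTAM.

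The Hoxb cluster had 1 gene of 3 tested by voom that changed, and it fell, against 22.6% of all genes tested. *Hoxb13*, the gene farthest to the 5′ end, which is expressed in the tail bud and the prostate, lies on the plus strand from 96194316 to 96197447. Its reads were 76, 82, 79 and 81 in WT and 39, 45, 49 and 61 in ΔTAM. All ΔTAM libraries were below all WT libraries. The level was 0.504 ± 0.0126 RPKM in WT and 0.308 ± 0.0284 RPKM in ΔTAM (SD, n = 4 each). The change was -0.57 on log2(RPKM + 0.1) (standard error 0.050, limma adjusted p = 1.69e-04), and by voom the ratio was 0.612 (95% interval 0.508 to 0.739, adjusted p = 1.52e-04).

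The other Hoxb genes did not pass the test or were too low for it. *Hoxb4*, used in blood stem cells, had 8 to 11 reads in WT and 11 to 12 in ΔTAM, a voom ratio of 1.22 (95% interval 0.815 to 1.82). *Hoxb9* had 15 to 32 and 13 to 29 reads, a ratio of 0.853 (95% interval 0.591 to 1.23). *Hoxb1*, an anterior gene of the hindbrain, had 1 read over the 4 WT libraries and 7 over the 4 ΔTAM libraries, 5 of them in library 4. *Hoxb2* had 0 and 5 reads in all, *Hoxb3* 1 and 3, *Hoxb6* 0 and 1, *Hoxb7* 7 and 13 and *Hoxb8* 3 and 1. No difference was detectable for these at this depth.

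In the Hoxc cluster *Hoxc4*, *Hoxc5* and *Hoxc13* were higher in ΔTAM by voom (3 of 8 tested, against 21.2% of all genes tested). The other 5 genes tested did not pass, and *Hoxc11* was too low to be tested. *Hoxc4*, the gene nearest the 3′ end, had 70, 55, 39 and 36 reads in WT and 76, 55, 76 and 86 in ΔTAM. The groups overlapped through WT library 1. The voom change was 1.51-fold (95% interval 1.17 to 1.94, adjusted p = 0.00898). *Hoxc5* had 10, 15, 8 and 11 reads in WT and 19, 19, 24 and 21 in ΔTAM, without overlap, and its change was 1.89-fold (95% interval 1.31 to 2.71, adjusted p = 0.00571). The annotated span of *Hoxc5* is 49986 bases long and runs across *Hoxc6*, *Hoxc8* and *Hoxc9* into *Hoxc10*. Of its exon bases, 5.37% are shared with *Hoxc10*.

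*Hoxc13*, at the 5′ end, which is needed for hair and nails, had 106, 80, 91 and 73 reads in WT and 110, 84, 157 and 141 in ΔTAM. Scaled to depth, ΔTAM library 2 lay inside the WT range and the other 3 ΔTAM libraries above it. By voom it was 1.41-fold higher (95% interval 1.16 to 1.72, adjusted p = 0.00619). On log2(RPKM + 0.1) its change of 0.35 (standard error 0.12, limma adjusted p = 0.0546) missed the threshold, and it passed without WT library 1 (adjusted p = 0.0364) or ΔTAM library 2 (adjusted p = 0.0272). *Hoxc12*, its neighbour, had 13 to 27 reads in WT and 16 to 31 in ΔTAM, a ratio of 1.12 (95% interval 0.791 to 1.59).

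*Hoxc6* had a voom ratio of 1.03 (95% interval 0.681 to 1.57), *Hoxc8* of 1.04 (0.748 to 1.44), *Hoxc9* of 0.861 (0.597 to 1.24) and *Hoxc10* of 1.06 (0.787 to 1.43). None of these 4 passed the test, and their intervals reach from 0.597 to 1.57. *Hoxc9* had 22, 25, 21 and 19 reads in WT and 12, 14, 17 and 36 in ΔTAM, so that library 4 lay above the WT range and the other ΔTAM libraries below it. *Hoxc11* had 4 to 9 reads in WT and 3 to 7 in ΔTAM.

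In the Hoxd cluster the 3 genes that could be tested by voom were all higher in ΔTAM, against 21.2% of all genes tested. *Hoxd8* had 10, 12, 6 and 11 reads in WT and 21, 19, 18 and 24 in ΔTAM, without overlap, a voom change of 2.10-fold (95% interval 1.43 to 3.08, adjusted p = 0.00275). *Hoxd9* had 12, 16, 16 and 16 reads in WT and 22, 27, 26 and 34 in ΔTAM. The groups did not overlap. It was 1.80-fold higher by voom (95% interval 1.31 to 2.47, adjusted p = 0.00382), and the change on log2(RPKM + 0.1) was 0.54 (standard error 0.076, limma adjusted p = 0.00140).

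*Hoxd13*, which shapes the digits, had 17, 17, 16 and 16 reads in WT and 29, 40, 35 and 27 in ΔTAM. Again all ΔTAM libraries were above WT. The change was 1.91-fold by voom (95% interval 1.36 to 2.68, adjusted p = 0.00278) and 0.59 on log2(RPKM + 0.1) (standard error 0.12, limma adjusted p = 0.00768). At a mean of 0.0996 RPKM in WT and 0.203 RPKM in ΔTAM, it passed the limma filter only through ΔTAM. *Hoxd10* had 0, 0, 1 and 1 reads in WT and 1, 1, 4 and 3 in ΔTAM. Its groups were apart only because 1 read weighs more in the smaller ΔTAM libraries, so no difference is read from it. *Hoxd1* had 1 to 7 reads in WT and 4 to 5 in ΔTAM, *Hoxd4* 1 to 5 and 4 to 8, and no library held more than 1 read of *Hoxd3*, of *Hoxd11* or of *Hoxd12*. Of the exon bases, 62.8% in *Hoxd3* and 52.3% in *Hoxd4* are shared with other transcripts, including each other.

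**Figure D3:**
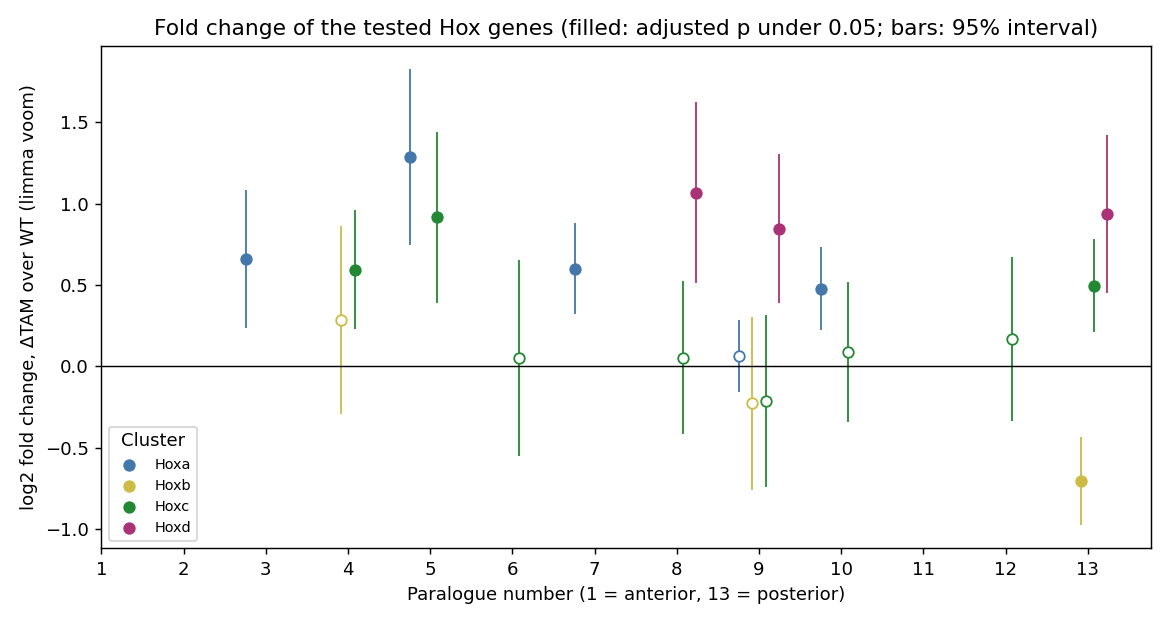
The log2 fold change of ΔTAM over WT from limma voom for the 19 Hox genes that averaged 10 reads or more, against paralogue number, coloured by cluster; bars are 95% intervals and filled points have an adjusted p under 0.05. Filled points above 0 lie at positions 3, 4, 5, 7, 8, 9, 10 and 13, and the filled point below 0 is *Hoxb13*.

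Paralogues did not move as 1 group. Of position 13, *Hoxc13* and *Hoxd13* were higher in ΔTAM by voom, *Hoxb13* was lower and *Hoxa13* was too low to test. Of position 9, *Hoxd9* was higher while *Hoxa9*, *Hoxb9* and *Hoxc9* did not pass the test. Of position 5, *Hoxa5* and *Hoxc5* were higher and *Hoxb5* had no read. Of position 4, *Hoxc4* was higher, *Hoxb4* did not pass the test, and *Hoxa4* and *Hoxd4* averaged under 10 reads. Differences between paralogues in their fold changes were not tested.

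By position, the voom test called 2 of 3 anterior genes (numbers 1 to 4), 4 of 6 central genes (5 to 8) and 4 of 10 posterior genes (9 to 13) higher, against 21.2% of all genes tested, and 1 posterior gene lower, against 22.6%. The median log2 fold change of the tested genes was 0.59 for anterior, 0.76 for central and 0.13 for posterior genes. By cluster it was 0.60 over 5 Hoxa genes, -0.23 over 3 Hoxb genes, 0.13 over 8 Hoxc genes and 0.93 over 3 Hoxd genes. These medians, by voom, rest on few genes and are given without a test. By limma no anterior gene was tested. Of 3 central genes 2 were higher, and of 7 posterior genes 3 were higher and 1 was lower. By cluster, limma called 3 of 4 Hoxa, 0 of 1 Hoxb, 0 of 3 Hoxc and 2 of 2 Hoxd genes higher, and the Hoxb gene lower. The shares of all genes tested by limma were 19.9% higher and 16.0% lower.

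The reads of the 38 genes were also summed by cluster, as values without a test. Hoxa took 49.1 ± 4.59 RPM in WT and 66.3 ± 5.07 in ΔTAM (SD, n = 4 each), a ratio of 1.35. In the WT libraries the sum was 43.6, 54.3, 47.5 and 51.0, and in ΔTAM 59.0, 66.5, 69.9 and 69.7, which lay apart. Without *Hoxa9*, the gene with the most reads, the ratio was 1.57. Hoxd had the largest ratio, 1.97, from 6.48 ± 0.463 to 12.7 ± 1.47, and at 6.19% of the reads of the 38 genes in WT it was the smallest cluster. Its libraries were at 5.79, 6.61, 6.73 and 6.78 in WT and 12.5, 14.9, 12.0 and 11.6 in ΔTAM.

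Hoxb went the other way, from 15.5 ± 1.31 to 11.8 ± 0.330, a ratio of 0.757. This rested on *Hoxb13*, without which the ratio of the other 9 genes was 1.07. Hoxc went from 33.5 ± 4.10 to 42.5 ± 4.37, a ratio of 1.27, and its groups overlapped (30.4 to 39.5 in WT and 36.0 to 45.6 in ΔTAM). Summed by position, the ratio was 1.51 for the 11 anterior genes, 1.59 for the 11 central genes and 1.13 for the 16 posterior genes. All 38 genes together were at 105 ± 3.29 in WT and 133 ± 5.91 in ΔTAM, a ratio of 1.27.

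**Figure D4:**
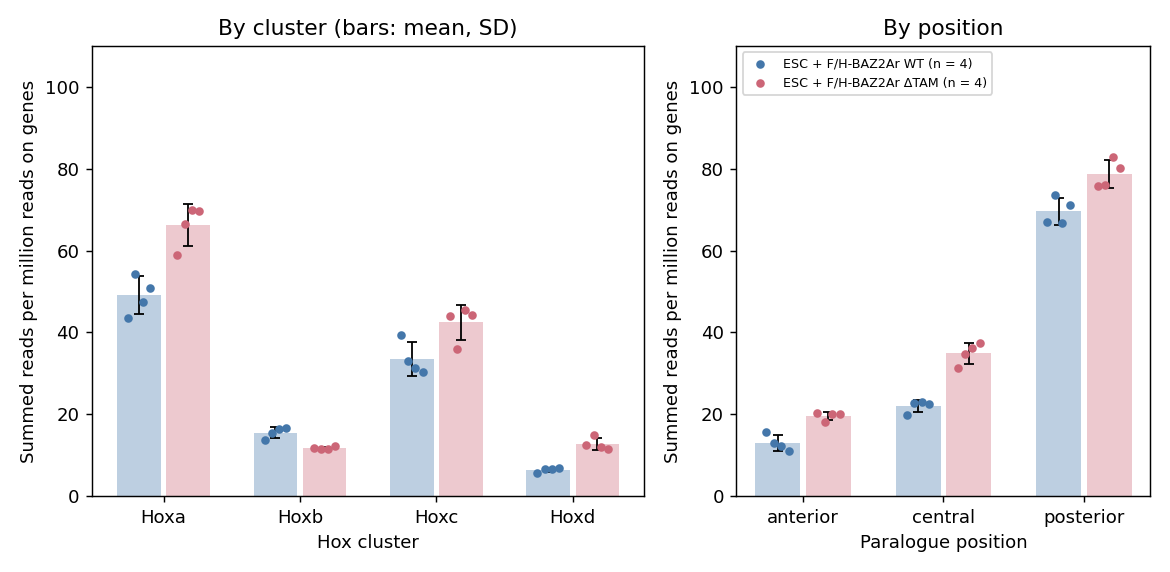
Summed RPM of the Hox genes (reads scaled to 1000000 reads on genes), by cluster (left) and by paralogue position (right); bars are means, error bars the SD and points the libraries (n = 4 each). The ΔTAM points lie above the WT points for Hoxa, Hoxd and each of the 3 positions, and below them for Hoxb. For Hoxc 3 of the 4 ΔTAM points lie above all WT points and library 2 lies among them.

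The 18 Hox genes with reads but a mean under 10 were too low to be tested singly by voom. Together they took 139 reads in WT and 235 in ΔTAM, or 4.63 ± 1.20 and 7.82 ± 0.383 RPM (SD, n = 4 each). The sums were 3.24 to 5.87 in WT and 7.29 to 8.18 in ΔTAM and did not overlap. The mean was higher in ΔTAM for 16 of the 18, against 52.6% of all 12779 genes with reads and a mean under 10. The other 2 were *Hoxb8* and *Hoxc11*.

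Of 78 other annotated entries within a cluster or within 100 kb of it, 42 had a read and 11 reached 0.1 RPKM. By limma 2 of these 11 were higher in ΔTAM, or 18.2% against 19.9% of all genes tested, and none was lower, against 16.0%. Both lie at Hoxb. *Calcoco2*, which encodes an autophagy receptor and lies beyond the 5′ end of Hoxb, was at 0.487, 0.443, 0.440 and 0.460 RPKM in WT and 1.29, 1.27, 1.34 and 1.34 RPKM in ΔTAM. Its change was 1.34 on log2(RPKM + 0.1) (standard error 0.035, limma adjusted p = 2.30e-06), in the direction opposite to *Hoxb13*, the Hox gene nearest to it. *Gm53*, a long noncoding RNA between *Hoxb13* and *Hoxb9*, was at 0.281 ± 0.0222 RPKM in WT and 0.368 ± 0.0247 RPKM in ΔTAM (SD, n = 4 each), a change of 0.30 (standard error 0.053, limma adjusted p = 0.00416). The other 9 (*Halr1*, *Gm27861* and *Gm27477* by Hoxa, *Gm27898*, *Gm27605*, *Gm11539*, *Mir196a-1* and *Gm11531* by Hoxb, and *Mtx2* by Hoxd) did not pass the test. By voom, 8 of the 78 were tested, 3 were higher (*Calcoco2*, *Gm53* and *Ttll6*), or 37.5% against 21.2% of all genes tested, and none was lower, against 22.6%. *Ttll6*, which lies between *Calcoco2* and *Hoxb13*, was under the RPKM filter and is named after its values were seen. It had 52, 35, 38 and 45 reads in WT and 70, 59, 67 and 79 in ΔTAM, without overlap, a log2 change of 0.70 (standard error 0.15, voom adjusted p = 8.60e-04).

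Genes that act with or on Hox genes were taken from 5 lists of 58 genes. By limma 32 were tested, of which 6 were higher (18.8%, against 19.9% of all genes tested) and 8 lower (25.0%, against 16.0%). By voom 50 were tested, of which 14 were higher (28.0%, against 21.2%) and 11 lower (22.0%, against 22.6%). Of 8 cofactor genes of the TALE class, whose proteins bind DNA together with Hox proteins, only *Pbx2* reached the RPKM filter, and it was higher, by 0.43 (standard error 0.039, limma adjusted p = 1.74e-04). By voom, which tested 7 of them, *Pbx2* was higher as well, and *Meis1* was lower, by -0.82 (standard error 0.30, adjusted p = 0.0315). *Meis1* had 11, 19, 17 and 18 reads in WT and 9, 5, 8 and 15 in ΔTAM. It passed the read filter of voom only through WT, the group where it was high. Its call was lost without WT library 2, 3 or 4 or ΔTAM library 2 or 3 (adjusted p = 0.0629 to 0.102). Of the 3 caudal genes, which activate central and posterior Hox genes, *Cdx1* and *Cdx2* were tested and neither passed by limma, with log2 changes of -0.037 and 0.28. By voom *Cdx1* did not pass and *Cdx2* was higher, by 0.38 (standard error 0.14, adjusted p = 0.0357), with 92, 91, 80 and 76 reads in WT and 68, 102, 138 and 140 in ΔTAM. In RPKM, library 1 of ΔTAM lay inside the WT range and the other 3 above it, and the call was lost without WT library 2, 3 or 4 or ΔTAM library 2, 3 or 4 (adjusted p = 0.0524 to 0.128). Of 16 genes for retinoic acid receptors and enzymes, 4 were tested and 2 were lower. These were *Crabp1*, a retinoic acid binding protein, by -0.57 (standard error 0.061, adjusted p = 3.87e-04), and *Rara*, a receptor, by -0.16 (standard error 0.043, adjusted p = 0.0233). The call of *Rara* was lost without WT library 2 or 3 or ΔTAM library 1, 2 or 3 (adjusted p = 0.0507 to 0.0614). It was also lost with the replicate number as a block (0.0718).

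By voom, 10 of the 16 retinoic acid genes were tested, of which 3 were higher, against 21.2% of all genes tested, and 3 lower, against 22.6%. These counts rest partly on the filter, since *Stra6* and *Aldh1a3* entered only through the group where each was high. The called genes under the RPKM filter are named here after their values were seen. *Stra6*, the receptor that takes up retinol, had 2, 4, 1 and 4 reads in WT and 21, 22, 28 and 23 in ΔTAM, far apart, a log2 change of 3.02 (standard error 0.33, adjusted p = 2.32e-07). It passed the filter of 10 reads only through ΔTAM. *Aldh1a2*, which makes retinoic acid in the embryo, had 146, 107, 92 and 126 reads in WT and 186, 171, 249 and 221 in ΔTAM, a change of 0.83 (standard error 0.11, adjusted p = 4.48e-06). *Aldh1a3*, a related enzyme, had 16, 22, 13 and 20 reads in WT and 13, 6, 7 and 3 in ΔTAM, a change of -1.42 (standard error 0.36, adjusted p = 0.00325). It passed the filter of 10 reads only through WT. The part of these genes in the Hox results was not tested.

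Of 9 trithorax genes, which keep Hox genes active, 8 were tested by limma, of which 3 were higher, against 19.9% of all genes tested, and 1 was lower, against 16.0%. By voom all 9 were tested, of which 4 were higher, against 21.2% of all genes tested, and 1 was lower, against 22.6%. By limma *Kmt2a*, the methyltransferase known for Hox upkeep, was higher by 0.17 (standard error 0.035, limma adjusted p = 0.00716), *Wdr5* by 0.14 and *Kmt2b* by 0.083, and *Ash2l* was lower, by -0.11. The call of *Wdr5* was lost without WT library 1 or 4 (adjusted p up to 0.0615), and that of *Ash2l* without WT library 1, 2 or 3 or ΔTAM library 3 or 4 (up to 0.0718). That of *Kmt2b* was lost without any 1 library other than WT library 2 (up to 0.0775). It was also lost by voom (0.0550), with quantile normalization (0.272) and with the replicate number as a block. Of 22 Polycomb genes, 17 were tested by limma, of which 2 were higher, against 19.9% of all genes tested, and 5 lower, against 16.0%. By voom all 22 were tested, of which 5 were higher, against 21.2%, and 6 lower, against 22.6%. By limma *Pcgf1* (0.39, standard error 0.058, adjusted p = 0.00170) and *Cbx6* (0.24, standard error 0.033, adjusted p = 0.00140) were higher, and *Phc1* (-0.33, standard error 0.021, adjusted p = 4.36e-05) and *Ezh1* (-0.16, standard error 0.037, adjusted p = 0.0119) were lower. So were *Eed* (-0.16, limma adjusted p = 0.00652), *Jarid2* (-0.14, 0.00382) and *Ezh2* (-0.11, 0.0269), which were lower by voom as well. The median log2 change of the 17 Polycomb genes was -0.015, against 0.011 for all genes tested.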

How the data were processed

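The authors trimmed reads of poly(A)-selected, stranded libraries (Trimmomatic 0.36 in the submitters' processing notes), aligned them to mm10 with STAR and deposited RPKM from exon reads. The lengths used were genomic spans. Whether strand was used in counting is not given in the sources used here. From the steps in RPKM, whole reads were recovered per gene (99.6% to 99.7% of values within 0.1 of a whole number), and 386 repeated entries were set aside. No value column was unused. Groups follow the labels. The 38 Hox coordinates equal those of GENCODE release M21, from which exon lengths came.

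Genes that averaged 0.1 RPKM or more were fitted on log2(RPKM + 0.1) with limma 3.58.1 (R 4.3.3), with lmFit and eBayes with a trend, no covariates and Benjamini-Hochberg adjustment over all genes tested. As an alternative, voom was fitted to recovered reads, for genes averaging 10 or more. The procedure was tested on simulated data. Depth was 6585593 to 8696304 reads on genes per library, so that a gene of 10 reads carries a large counting error. Of the 39 Hox genes 38 are named, other entries near a cluster if they passed the RPKM filter, and up to 4 genes of each list with an adjusted p under 0.05 and the largest change. *Cdx1*, *Cdx2*, *Meis1*, *Stra6*, *Aldh1a2*, *Aldh1a3*, *Ttll6*, *Eed*, *Jarid2*, *Ezh2* and markers are named beyond that. 1 Hox gene and 1 cofactor gene are not reported here, though both were kept in every fit. The members and lists were chosen with earlier results of these data known. Alternatives varied the pseudocount, filter, scaling, eBayes options, replicate block and libraries. Python 3.11.15 drew the figures.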

Additional observations from a re-analysis of the deposited data

Results flagged for a closer look

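The 19 Hox genes that averaged 10 reads or more were searched in both groups, 38 sets of 4 libraries, for a library far from the other 3 by Dixon's test at its 95% critical value, which chance passes in about 1 of 20 sets. For *Hoxa9*, ΔTAM library 1 stood apart at 0.335 RPKM, below the other ΔTAM libraries at 0.406 to 0.411 RPKM. For *Hoxc9*, ΔTAM library 4 stood apart at 0.0716 RPKM, above the other ΔTAM libraries at 0.0307 to 0.0369 RPKM. Neither gene had passed the test between groups.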

How the results depend on the processing

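The 5 higher Hox genes became 10 with voom on recovered reads and 8 with no filter, which held 4 of the 5 and not *Hoxa7*. A filter at a mean of 1 RPKM left none of the 38 to test. Of the 10 highest genes in WT by span, 6 were so per kilobase of exon. With a library left out, 4 to 5 were higher and 1 was lower by limma, 9 to 12 groups did not overlap upwards and 1 to 2 downwards. With the replicate block, 6 were higher (*Hoxc13* too, adjusted p = 0.0397), and *Rara* (0.0718) and *Kmt2b* (0.0581) did not pass. Same-numbered libraries correlated weakly, by 0.024 to 0.062, and 6 of 8 libraries correlated best with their own number. Whether the replicate numbers pair the samples is not settled by these values. With single libraries left out, *Hoxa9* ranged from -0.011 to 0.12 (-0.015 to 0.15 by voom), *Hoxc12* from -0.024 to 0.19 (-0.015 to 0.30), *Hoxc8* from -0.043 to 0.094 (-0.075 to 0.15) and *Hoxc6* by voom from -0.13 to 0.22, and *Hoxc6* was -0.013 by voom with the replicate block. None of these had passed the test. Without their gene of most reads, the ratios of Hoxa and Hoxb were 1.57 and 1.07. The voom settings beyond the main one and the cluster alternatives were added after seeing the data. Scalings moved the median of all genes by -0.019 at most (quantile). Over the settings, 636 single-gene values kept direction and side of the threshold, 40 lost and 4 gained a call, and 11 turned direction; the cause was not tested. Depth limits the members under 10 reads.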
